A study of Mus musculus with 12 samples.

Results

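Liver RNA of mice fasted for 72 h was set against that of mice fasted for 12 h, which are the longest and the shortest fasts of the series. The 6 arrays of these groups, 3 per duration, are 6 of the 12 arrays of the study, and they were chosen by their labels alone. Every mouse was a 6-week-old male of the FVB strain. Food was withdrawn for 12 or 72 h in the groups compared, for a time between these in a further fasted group, and not at all in the fed group. The further fasted group was not compared, but its arrays entered the normalization and the spread of each probe in the fits. No drug, transgene or deletion was involved. On each array the RNA of 2 livers, pooled and labelled with Cy3, was hybridised with Cy5-labelled RNA pooled from 6 fed livers, so every level is given as log2 of the liver sample over this fed reference. The question was how the transcriptome of late fasting differs from that of early fasting.

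During a fast, fatty acids released from adipose tissue reach the liver, where they are bound to carrier proteins, activated to acyl-CoA, moved into mitochondria with carnitine and shortened by beta-oxidation. Very long chains are first shortened in peroxisomes. The acetyl-CoA formed is turned into ketone bodies, and glycerol and amino acids feed the formation of new glucose. Peroxisome proliferator-activated receptor alpha (PPARα), a receptor that binds fatty acids, is known to drive many genes of these routes in the fasted liver.

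The 12 h arrays did not resemble each other equally. Over 20280 probes, replicates 1 and 3 correlated with r = 0.88, whereas replicate 2 correlated with them at r = -0.15 and r = -0.18. Its median Cy3 signal was 200, against 350 and 502 on the other 12 h arrays and 571 to 637 on the 72 h arrays, and the SD of its log2 ratios was 1.00, against 0.28 to 0.45 on the other 5 arrays. The 72 h arrays correlated with each other at r = 0.52 to 0.82. The median SD of a probe among the 12 h arrays was 0.41 on the log2 scale with replicate 2 and 0.08 without it, and it was 0.12 among the 72 h arrays. A 24 h array, replicate 3, also had a low Cy3 signal, with a median of 124.5. The counts over all probes are therefore given with all 12 arrays in the fit, and without these 2 low-signal arrays, which leaves 2 arrays at 12 h. Folds, differences and adjusted p of single genes come from the fit without these 2 arrays unless all arrays are named. In addition, no day of image quantification held both a 12 h and a 72 h array.

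With all arrays, none of 19951 probes passed the threshold (at least 1.4-fold at a limma p under 0.05 after Benjamini-Hochberg adjustment), which is 0% of the probes tested. At an unadjusted p under 0.05 there were 964 probes, or 4.83%, of which 450 were lower (2.26%) and 514 were higher (2.58%) at 72 h. The smallest adjusted p was 0.68, shared by acyl-CoA thioesterase 1 (Acot1) and circadian associated repressor of transcription (Ciart). Without the low-signal arrays, 27 of 19948 probes passed, or 0.135%, and 26 of these were lower at 72 h (0.13%) while 1 was higher (0.00501%). At an unadjusted p under 0.05, 1485 probes were lower (7.44%) and 1071 were higher (5.37%). The median difference over all probes was 0.02.

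All 27 probes kept their sign with all arrays, where 15 of them had an unadjusted p under 0.05. The 12 h and 72 h arrays, replicate 2 included, did not overlap for 13 of them. Over all probes tested with all arrays, 8.1% were lower at 72 h without overlap and 11.4% were higher. The 27 were chosen on arrays that are also in the fit with all arrays, so these counts are not independent of that choice. The call, however, needed both low-signal arrays to be left out: with 24 h replicate 3 kept in the fit, 0 probes passed by limma, 715 had an unadjusted p under 0.05, and the smallest adjusted p of the 27 was 0.21. With the day of quantification as a random block, 0 of the 19948 probes passed either. A fixed day block could be fitted only with all 12 arrays, where 12 h replicate 2, 24 h replicate 3 and fed replicate 1 link the days. In that fit 16 of the 27 probes turned their sign and 2 stayed past the threshold, so a part of the day in these differences cannot be told apart from the fast. Single arrays also moved the number of probes past the threshold. It was 12 without fed replicate 2, 2 without 12 h replicate 1, 10 without 12 h replicate 3, 6 without 72 h replicate 1, 8 without 72 h replicate 2 and 119 without 72 h replicate 3.

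**Figure D1:**
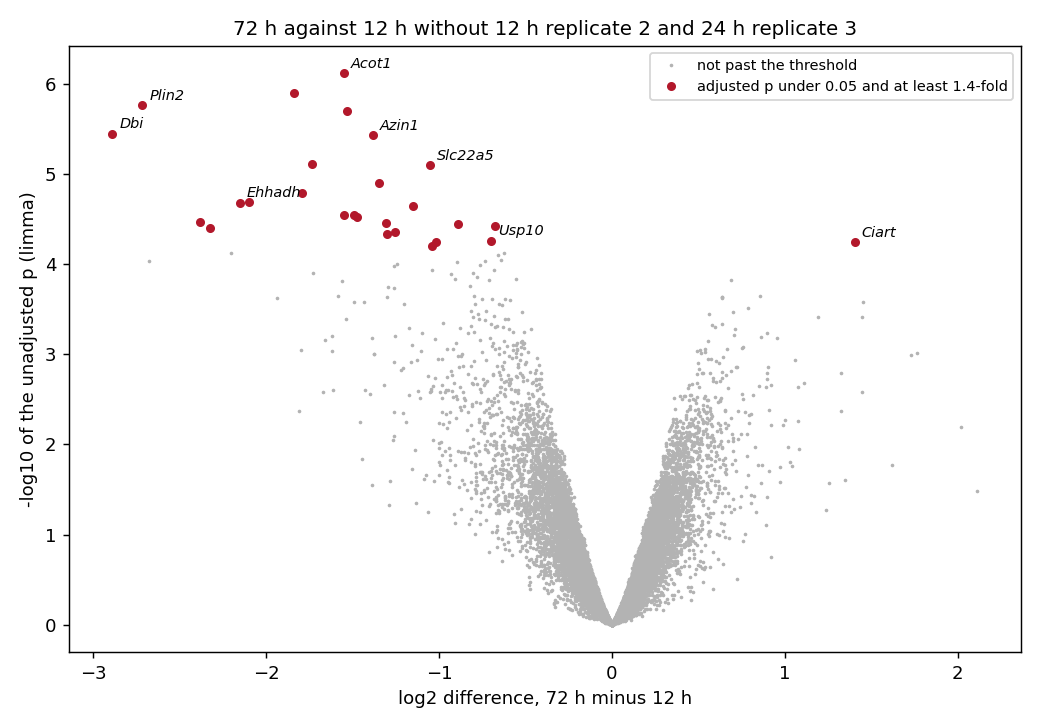
Log2 difference of each probe (72 h minus 12 h, horizontal axis) against -log10 of its unadjusted p (vertical axis), fitted without 12 h replicate 2 and 24 h replicate 3. The 27 probes past the threshold, in red, lie on the left apart from Ciart at 1.4, and Dbi at -2.89 and Plin2 at -2.72 lie farthest to the left.

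Genes of fatty-acid oxidation and ketogenesis were lower at 72 h than at 12 h. The list held 56 genes, of which 34 were measured, with 38 probes. Without the low-signal arrays 7 of the 38 probes passed the test, all lower at 72 h (background 0.13%), 22 were lower at an unadjusted p under 0.05 (background 7.44%) and 0 were higher. The median difference of the list was -0.65, against 0.02 for all probes tested. Of the 38 differences 34 were negative, against 8981 of 19948 over all probes tested. With all arrays the median was -0.48, and 10 probes were lower and 0 higher at an unadjusted p under 0.05. The list median turned to 0.26 with the fixed day block over all 12 arrays and was -0.10 with day as a random block there.

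The median log2 ratio of this list was 1.32 in 12 h replicate 1, -0.05 in replicate 2 and 0.81 in replicate 3. It was -0.05, 0.13 and 0.22 in the 72 h arrays, and 0.31, 0.24 and 0.00 in the fed arrays. The 72 h arrays thus lay in the range of the fed ones or just below it, and 12 h replicates 1 and 3 lay above both. Without replicate 2, the mean at 12 h was above the fed mean for 34 of the 38 probes, and the mean at 72 h was above it for 20. These counts were not made over all probes.

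PPARα itself (Ppara) read 1.4, -0.12 and 1.11 in the 12 h arrays and -0.80, -0.08 and 0.52 in the 72 h arrays. The groups overlapped through replicate 2 only, and the difference of -1.38 ± 0.31 (SE) had an adjusted p of 0.124 without the low-signal arrays.

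Perilipin 2 (Plin2), which coats lipid droplets, read 2.76, 1.21 and 1.99 at 12 h and -0.53, -0.47 and -0.02 at 72 h. All 12 h arrays lay above all 72 h arrays. It fell 6.57-fold without the low-signal arrays (log2 difference -2.72 ± 0.29, limma adjusted p = 0.00984), and the difference with all arrays was -2.33 ± 0.43 (adjusted p = 0.73).

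For the entry of fatty acids into mitochondria, the plasma-membrane carnitine transporter Slc22a5 read 1.30, 1.63 and 1.14 at 12 h and 0.20, 0.10 and 0.22 at 72 h. Here replicate 2 was the highest of the 12 h arrays, and the groups did not overlap. Slc22a5 fell 2.07-fold without the low-signal arrays (adjusted p = 0.0199, limma). Carnitine octanoyltransferase (Crot), which hands medium chains from peroxisomes on as carnitine esters, read 1.39, -1.03 and 0.90 at 12 h and -2.07, -1.97 and -0.55 at 72 h. Its 6.39-fold lower level at 72 h missed the threshold (adjusted p = 0.055), and replicate 2 lay among the 72 h arrays. Carnitine palmitoyltransferase 2 (Cpt2), which re-forms acyl-CoA inside the mitochondrion, read 1.62 and 1.19 at 12 h, with the spot of replicate 2 excluded as an outlier, and -0.65, -0.20 and 0.44 at 72 h (adjusted p = 0.0949). The carnitine-acylcarnitine carrier Slc25a20 differed by -0.48 ± 0.21, at an adjusted p of 0.384.

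Long-chain acyl-CoA synthetase 1 (Acsl1), which activates fatty acids, read 1.81, -0.39 and 1.69 at 12 h and -0.51, 0.25 and 0.15 at 72 h. It fell 3.46-fold without the low-signal arrays (limma adjusted p = 0.0325), although replicate 2 lay among the 72 h values. With all arrays the difference of Acsl1 was -1.08 ± 0.57. Acot1, which releases free fatty acid from acyl-CoA, was the probe with the smallest p. It read 2.25, 1.68 and 1.94 at 12 h and 0.51, 0.65 and 0.47 at 72 h, so both groups were tight and well apart, replicate 2 included. Acot1 fell 2.93-fold (log2 difference -1.55 ± 0.14, adjusted p = 0.00984) without the low-signal arrays, and the difference was -1.41 ± 0.21 with all arrays.

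Of the peroxisomal enzymes, the bifunctional enzyme Ehhadh read 3.02, 0.59 and 2.39 at 12 h and 0.06, 0.83 and 0.78 at 72 h. It fell 4.45-fold without the low-signal arrays (adjusted p = 0.0344), with replicate 2 inside the 72 h range. Pex11a, a peroxisome proliferation factor, read 0.59, 1.76 and 0.91 at 12 h and -0.09, -0.35 and -0.09 at 72 h, without overlap, at an adjusted p of 0.123.

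The mitochondrial beta-oxidation enzymes were lower by smaller amounts, and none passed the test. The alpha and beta subunits of the trifunctional protein, Hadha and Hadhb, differed by -0.51 ± 0.11 and -0.98 ± 0.27 without the low-signal arrays. The differences of the acyl-CoA dehydrogenases for long, medium and short chains were -0.76 for Acadl, -0.50 for Acadm and -0.72 for Acads, and that of very long chains, Acadvl, was -0.45. The smallest adjusted p of these dehydrogenases was 0.286, for Acadl, and with all arrays Acadm differed by 0.30.

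**Figure D2:**
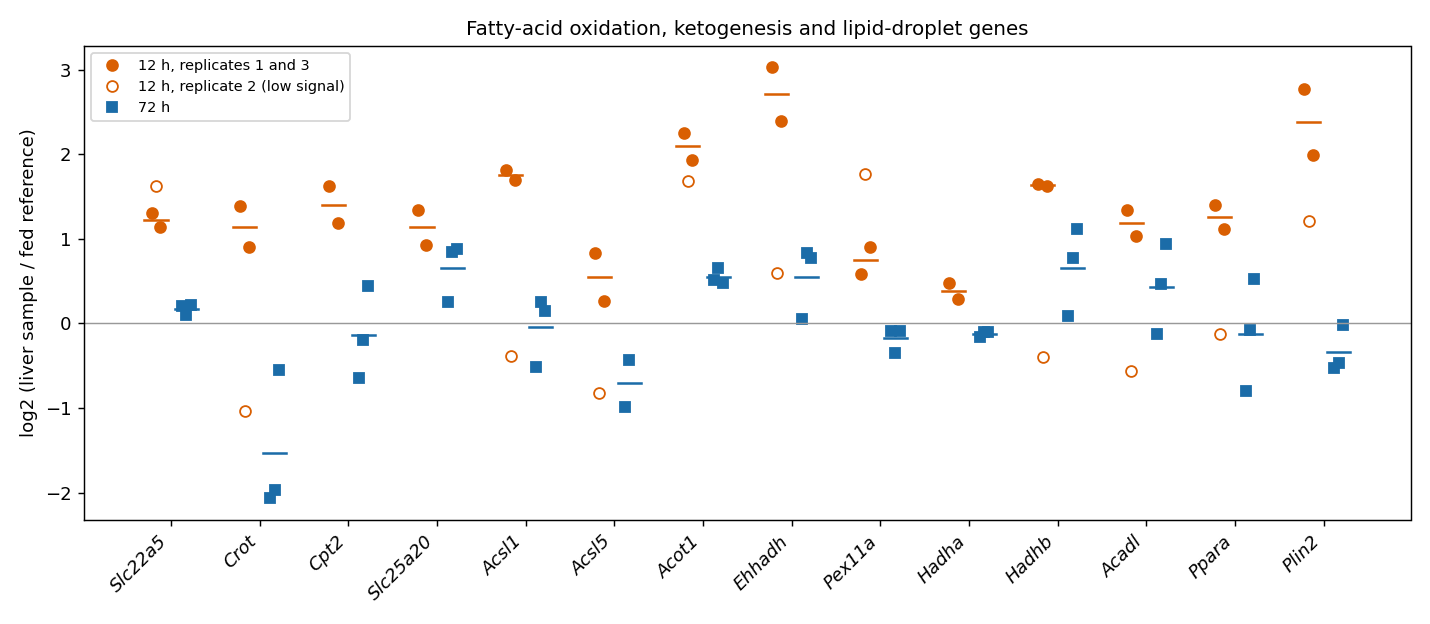
Log2 ratio of liver sample over fed reference (vertical axis) for 14 genes of fatty-acid oxidation and lipid droplets, in 12 h arrays (circles, replicate 2 open) and 72 h arrays (squares). Short lines are the means of 12 h replicates 1 and 3 and of the 72 h arrays. Slc22a5, Acot1, Pex11a and Plin2 separate with replicate 2 included. The genes with the open circle among or below the squares include Acsl1, Ehhadh, Crot and Ppara.

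The PPARα response element, direct repeat 1, is AGGTCA written a further time after a spacer of 1 base. Searched exactly on both strands of 300-base RefSeq promoter windows, from 250 bases before the start site, it was found in 0.0396% of the 32851 windows of the GRCm38.p6 table and in 0 of the 29 windows of the fatty-acid list. With so low a share over all windows, 0 of these 29 decides nothing, and sites outside the windows were not searched. Of the 34 named genes, 9 had no window. The single AGGTCA was found in 16.3% of all windows and in 4 of the 29 of the list. Plin2, the list member with the largest fall, holds it once on the reverse strand, at position -218 from the start site, and its complement TGACCT is in capitals in the following sequence. The window is chr4:86670010-86670309 (minus strand, written 5′ to 3′ in the direction of the gene).
Plin2: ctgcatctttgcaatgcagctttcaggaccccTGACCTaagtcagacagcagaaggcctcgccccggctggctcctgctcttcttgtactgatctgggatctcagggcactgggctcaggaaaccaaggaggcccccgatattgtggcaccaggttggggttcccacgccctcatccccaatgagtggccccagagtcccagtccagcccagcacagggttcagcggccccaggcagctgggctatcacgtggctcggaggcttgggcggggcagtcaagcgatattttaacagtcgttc

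Diazepam binding inhibitor (Dbi), also known as acyl-CoA binding protein, had the largest difference among the probes that passed. It read 0.73, -1.33 and 0.04 at 12 h and -3.21, -2.45 and -1.85 at 72 h, without overlap, and fed arrays read 0.19, 0.11 and -0.34. Dbi fell 7.41-fold without the low-signal arrays (log2 difference -2.89 ± 0.33, limma adjusted p = 0.0122), and its difference with all arrays was -2.32 ± 0.51. Dbi at 72 h lay below every fed array.

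Fatty acid binding protein 5 (Fabp5) read 0.31, -1.59 and -0.01 at 12 h and -1.62, -1.77 and -1.37 at 72 h, and fell 3.33-fold without the low-signal arrays (adjusted p = 0.0199, limma). Nudt7, a peroxisomal enzyme that breaks down coenzyme A, read -1.01, -2.82 and -1.23 at 12 h and -3.45 and -3.44 at 72 h, where the spot of replicate 3 was excluded as an outlier. It fell 5.01-fold without the low-signal arrays (adjusted p = 0.0379). For both genes 12 h replicate 2 lay near the 72 h arrays. Glycerol kinase (Gk), through which glycerol enters the glucose pathway, read 1.23, -1.05 and 1.25 at 12 h and -0.31, -0.24 and 0.36 at 72 h. Gk fell 2.47-fold (limma adjusted p = 0.0377) without the low-signal arrays, and its difference with all arrays was -0.54 ± 0.58.

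Stearoyl-CoA desaturase 1 (Scd1), which makes monounsaturated fatty acids, read -0.38, -2.85 and 0.21 at 12 h and -1.45, -1.20 and -1.52 at 72 h. It fell 2.46-fold without the low-signal arrays (limma adjusted p = 0.0397), while with all arrays the difference was -0.38 ± 0.61. It was the single member of the fatty-acid synthesis list to pass, of 20 probes (background 0.13% lower), 6 of which were lower at an unadjusted p under 0.05 (background 7.44%). The list median was -0.12, and 0.05 with all arrays. Fatty aldehyde dehydrogenase (Aldh3a2) was 2.45-fold lower and serine incorporator 2 (Serinc2) 2.36-fold lower, but both missed the threshold (limma adjusted p = 0.0705 and 0.0567). Both were picked among probes without overlap of the groups, so their separation was fixed by that choice.

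Among enzymes of steroid metabolism, Cyp7b1, an oxysterol hydroxylase of the alternative bile-acid route, read 1.48 and 1.49 at 12 h and -1.05, -0.09 and -0.71 at 72 h. The spot of replicate 2 was excluded as an outlier, so the difference of -2.10 was the same with all arrays. It fell 4.28-fold (limma adjusted p = 0.0344 without the low-signal arrays). A dimmer probe of Cyp7b1 differed by 0.13 ± 0.18, so the probes of this gene disagree.

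In the list of 30 tested conjugation and detoxification probes, 1 passed as lower (background 0.13%), 10 were lower and 3 higher at an unadjusted p under 0.05 (background 7.44% lower and 5.37% higher), and the median was -0.15.

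Receptors of growth hormone and related cytokines were next. For the leukaemia inhibitory factor receptor (Lifr), the brighter probe differed by 0.06 ± 0.24. The other read 0.61, -0.58 and 0.71 at 12 h and -0.62, -0.67 and -0.76 at 72 h, and fell 2.54-fold without the low-signal arrays (limma adjusted p = 0.0275). The probes of Lifr therefore disagree too. The growth hormone receptor (Ghr), from the insulin and IGF list, read 0.25 and 0.24 at 12 h and -1.75, -1.61 and -0.65 at 72 h. It was 3.00-fold lower without overlap, at an adjusted p of 0.0791. Both probes of insulin-like growth factor 1 (Igf1), the main hepatic product of growth hormone signalling, were lower, by -0.95 ± 0.24 and -0.90 ± 0.24 (adjusted p = 0.169 and 0.182), but they differed by -0.27 and 0.43 with all arrays. Over the 46 probes of that list, 6 were lower and 2 higher at an unadjusted p under 0.05 (background 7.44% lower and 5.37% higher), and the median was 0.07.

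Other named genes that passed without the low-signal arrays were of mixed function. Antizyme inhibitor 1 (Azin1), which spares ornithine decarboxylase from breakdown, fell 2.61-fold (limma adjusted p = 0.0122), reading 0.72, -1.73 and 0.83 at 12 h and -0.80, -0.70 and -0.31 at 72 h. The mitochondrial carrier Slc25a30 fell 2.81-fold by 1 probe (adjusted p = 0.0375), and its slightly brighter probe differed by -0.60 ± 0.13 in the same direction (adjusted p = 0.151). The deubiquitinase Usp10 fell 1.62-fold by its brighter probe (adjusted p = 0.0438), and its other probe differed by -0.38 ± 0.23. For these 3 genes replicate 2 lay below every 72 h array. With all arrays their probes that passed differed by -0.55 ± 0.68 (Azin1), -0.71 ± 0.53 (Slc25a30) and -0.29 ± 0.36 (Usp10). The other probes of Slc25a30 and Usp10 turned to 0.12 ± 0.61 and 0.43 ± 0.55 there. The uncharacterised gene 1810055G02Rik read 1.99, 1.08 and 1.42 at 12 h and -0.19, 0.48 and 0.19 at 72 h, and fell 2.93-fold without overlap (adjusted p = 0.0375), with another probe at -0.81 ± 0.15 (adjusted p = 0.0949).

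In the lysosome and autophagy list, the membrane protein Lamp2 had a brighter probe that differed by -0.65 ± 0.29 (adjusted p = 0.379). Its dimmer probe read 0.88, -1.69 and 1.00 at 12 h and -0.66, -0.38 and 0.09 at 72 h and fell 2.39-fold without the low-signal arrays (adjusted p = 0.0395, limma). With all arrays the brighter probe differed by 0.44 ± 0.80 and the dimmer by -0.38 ± 0.68. Lamp2 was the 1 of 68 probes of that list to pass (background 0.13% lower). At an unadjusted p under 0.05, 17 were lower and 4 higher (background 7.44% lower and 5.37% higher), and the list median of -0.16 became 0.04 with all arrays. The proton-pump subunit Atp6v1a was lower by both of its probes without overlap (-1.16 ± 0.25 and -0.74 ± 0.22), at adjusted p of 0.122 and 0.239.

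Of the 26 lower probes, 6 match no gene symbol here and are given by their clones. The difference was -1.15 for H3159A06-5, -1.47 for C0945E12-3, -0.89 for H3087G03-3, -0.68 for H3101F07-3, -1.02 for K0616F07-3 and -1.04 for J0458D01-3. The value of C0945E12-3 rests on 1 array at 12 h (1.19 in replicate 1), since the spot of replicate 3 was excluded as an outlier. The arrays of 12 h and 72 h did not overlap for C0945E12-3 and H3101F07-3.

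**Figure D3:**
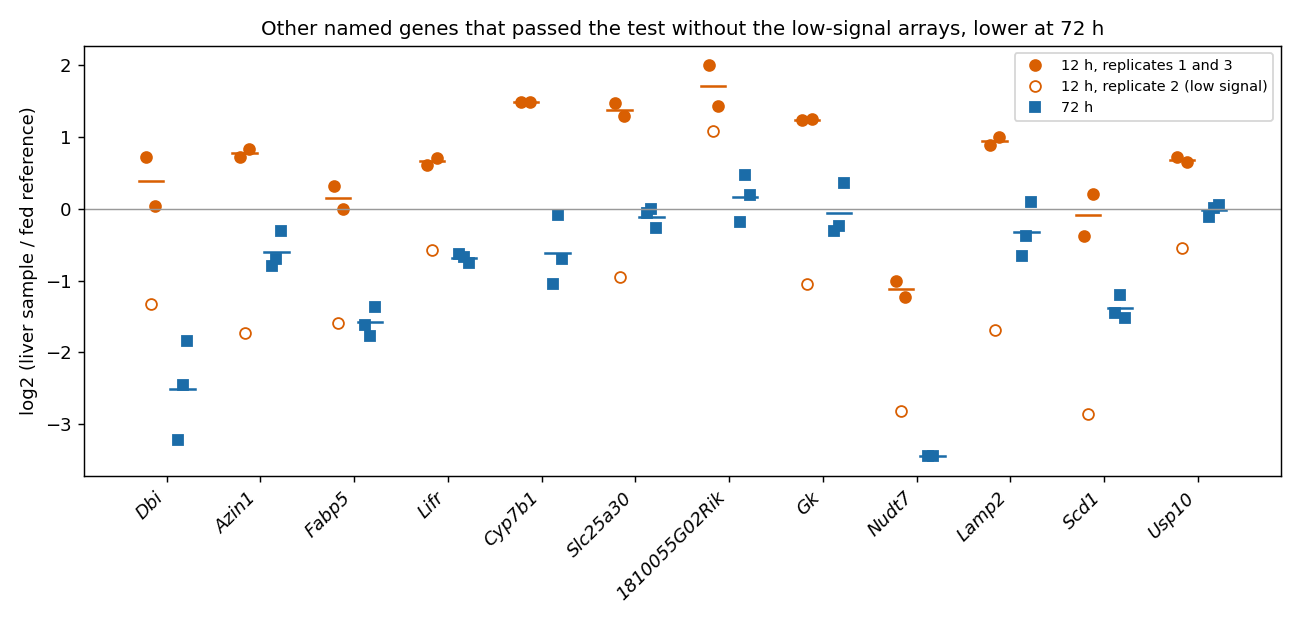
Log2 ratio of liver sample over fed reference (vertical axis) for 12 other named genes lower at 72 h that passed without the low-signal arrays, with symbols as in the plot of fatty-acid genes. The 72 h squares of Dbi and Nudt7 lie lowest, and 12 h replicate 2 (open) lies below all 72 h squares for Azin1, Slc25a30, Gk, Lamp2, Scd1 and Usp10.

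Ciart, a repressor within the circadian clock, was the single probe that passed as higher at 72 h. It read -1.02, -1.68 and -0.91 at 12 h and 0.40, 0.91 and 0.01 at 72 h, and fed arrays read -0.22, 0.03 and -0.14. All 72 h arrays lay above all 12 h arrays, and 12 h was also below fed. Ciart rose 2.65-fold without the low-signal arrays (log2 difference 1.4 ± 0.22, limma adjusted p = 0.0438), and its difference with all arrays was larger (1.64 ± 0.26, adjusted p = 0.68). It stayed past the threshold in 1 of the 10 fits that left out another array.

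The E-box CACGTG, the same on both strands, is the element bound by the clock activators CLOCK and BMAL1. The Ciart promoter is shown because it holds 3 of them, at positions -116, -58 and -44 from the start site, in capitals. At least 1 was found in 7.15% of the 32851 promoter windows and at least 3 in 0.0883%. Of the 20 windows of the clock list, 4 held at least 1. The window is chr3:95882179-95882478 of GRCm38.p6 (minus strand, written 5′ to 3′ in the direction of the gene).
Ciart: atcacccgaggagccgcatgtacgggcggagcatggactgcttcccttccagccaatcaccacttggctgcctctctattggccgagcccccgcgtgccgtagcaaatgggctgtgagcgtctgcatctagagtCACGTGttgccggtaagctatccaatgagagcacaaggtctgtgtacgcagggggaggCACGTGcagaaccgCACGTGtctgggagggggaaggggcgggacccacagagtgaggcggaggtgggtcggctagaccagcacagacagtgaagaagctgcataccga

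No other clock gene passed the test. The ubiquitin-specific protease Usp2, whose RNA cycles with the clock in liver, read -1.12 and -0.75 at 12 h, with the spot of replicate 2 excluded as an outlier. Usp2 read -0.03, 0.65 and 0.91 at 72 h and was 2.73-fold higher (limma adjusted p = 0.0949). The cryptochromes, repressors of CLOCK and BMAL1, differed by 0.55 ± 0.18 for Cry2 and 0.30 ± 0.13 for Cry1, without overlap of the groups, at adjusted p of 0.272 and 0.36. The PAR bZIP activator Tef, an output factor, read 0.85, -0.97 and 0.39 at 12 h and 0.92, 1.83 and 1.17 at 72 h (adjusted p = 0.403). The activator Arntl, which encodes BMAL1, differed by 0.01 ± 0.27, and Clock by -0.31 ± 0.15. Rora, with the smallest p of the clock genes lower at 72 h, differed by -0.57 (limma adjusted p = 0.214). Over 21 probes of 16 genes, 1 passed as higher (background 0.00501%), 4 were higher and 2 lower at an unadjusted p under 0.05 (background 5.37% and 7.44%), and the median was 0.16. All mice were killed in the same hour of the morning.

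The remaining genes named as higher at 72 h did not pass the test. They were chosen by smallest p among probes without overlap of the groups, so their separation was fixed by that choice. Over all probes tested with all arrays, 11.4% were higher without overlap. The spots of 12 h replicate 2 for Rbm3 and Gtf2a2 and of 72 h replicate 3 for Slc37a4 were excluded as outliers. The cold-inducible RNA-binding protein Rbm3 read 0.31 and -0.27 at 12 h and 1.13, 1.96 and 1.31 at 72 h, a 2.74-fold higher level (adjusted p = 0.0799). The glucose 6-phosphate transporter Slc37a4, needed for the last step of glucose release, read 1.16, -0.23 and 1.03 at 12 h and 1.95 and 2.63 at 72 h, a 2.29-fold higher level (adjusted p = 0.0949). The Ras-association protein Rassf1 was 1.81-fold higher and the iron-sulphur assembly factor Ciapin1 1.61-fold higher (adjusted p = 0.0791 and 0.0632). The mitochondrial dicarboxylate carrier Slc25a10 was 1.81-fold higher by its brighter probe, while its other probe differed by -0.06 ± 0.16. The brighter probe of the stress kinase Mapkapk2 was 1.20-fold higher and its other probe 1.69-fold higher. The glutathione transferase Gstt3, the secreted kinase Pkdcc, the deacetylase Hdac10 and the general transcription factor subunit Gtf2a2 were 1.51-, 1.64-, 1.63- and 1.69-fold higher, at adjusted p from 0.105 to 0.123.

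**Figure D4:**
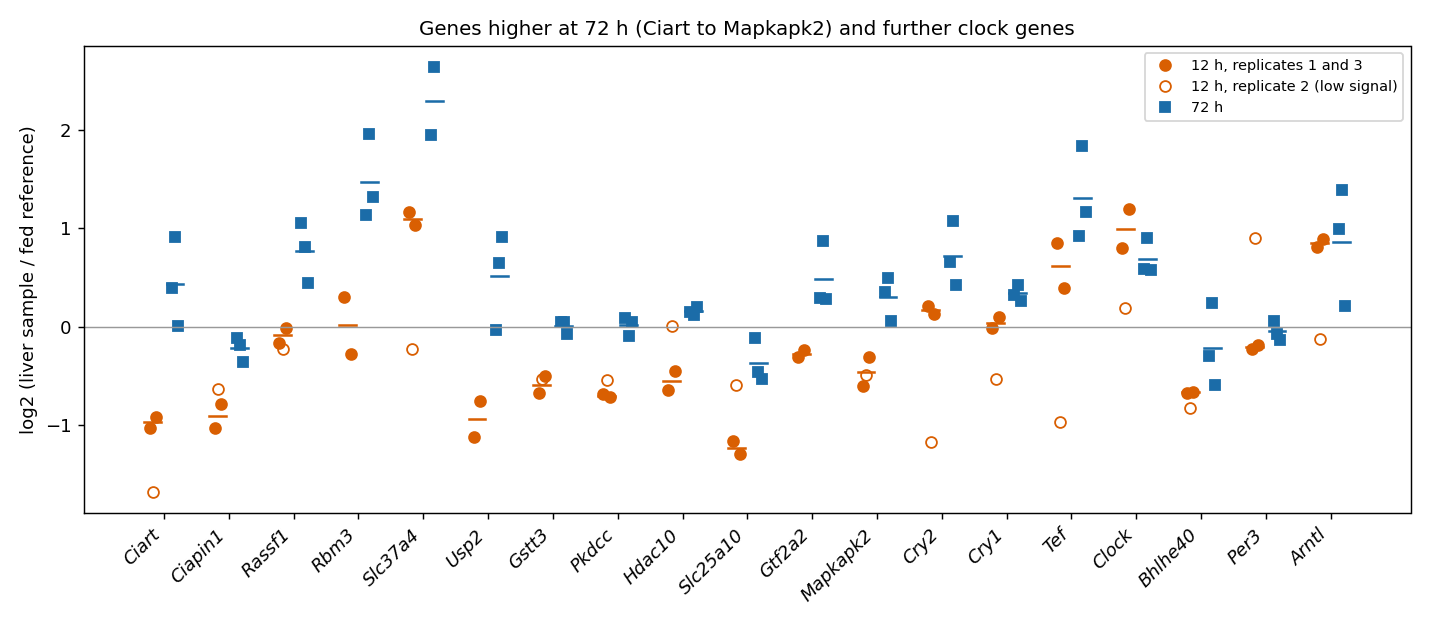
Log2 ratio of liver sample over fed reference (vertical axis) for the 12 genes named as higher at 72 h, from Ciart to Mapkapk2, and 7 further clock genes, with symbols as in the plot of fatty-acid genes. The 12 genes were chosen for 72 h squares above all 12 h circles, and Cry2, Cry1, Tef and Bhlhe40 also show this. Of 21 clock probes, 6 were higher and 1 lower without overlap (background 11.4% higher and 8.1% lower). Slc37a4 reaches the highest level at 2.63.

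Of the secreted plasma proteins, 22 probes of 21 genes were measured and 0 passed by limma, while 12 were lower and 2 higher at an unadjusted p under 0.05 (background 7.44% lower and 5.37% higher). The list median was -0.62 without the low-signal arrays, -0.33 with all arrays and 0.50 with the fixed day block over all 12 arrays. Coagulation factor V (F5) differed by -0.90 ± 0.19 and plasminogen (Plg), the precursor of the clot-dissolving protease, by -1.43 ± 0.35. Complement factors B (Cfb) and I (Cfi) differed by -1.10 ± 0.24 and -1.38 ± 0.31, and the protease inhibitor precursor Ambp, read without replicate 2, by -1.80 ± 0.38. Their adjusted p lay between 0.12 and 0.169. Lipocalin 2 (Lcn2), an acute-phase protein that binds iron carriers of bacteria, read -0.32, 0.00 and -0.40 at 12 h and 0.14, 0.83 and 0.96 at 72 h, a 2.00-fold higher level without overlap (adjusted p = 0.22).

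Genes known as targets of cortisol-type hormones ran in both directions. Of 18 probes 0 passed by limma, 5 were higher and 1 lower at an unadjusted p under 0.05 (background 7.44% lower and 5.37% higher), and the median was 0.07 without the low-signal arrays and 0.54 with all arrays. The mTOR inhibitor Ddit4 read 0.99, -0.09 and 1.73 at 12 h and 3.82, 4.14 and 2.18 at 72 h, a 4.05-fold higher level without overlap, at an adjusted p of 0.228. The kinase Sgk1 was 2.11-fold higher (adjusted p = 0.221). Sgk1 also stood in the immediate-early list, in which 5 of 31 probes were higher and 1 lower at an unadjusted p under 0.05 (background 7.44% lower and 5.37% higher, 0 passed by limma), with a median of 0.21.

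For glucose metabolism, 0 of 40 probes of glycolysis and gluconeogenesis passed by limma, 3 were higher and 2 lower at an unadjusted p under 0.05 (background 7.44% lower and 5.37% higher), and the median was 0.04. Lactate dehydrogenase A (Ldha), which interconverts lactate and pyruvate, read 2.44, 0.03 and 1.39 at 12 h and -0.31, 0.65 and 0.42 at 72 h, a 3.16-fold lower level with an adjusted p of 0.119. The median of the electron-transport chain changed sign between the fits. Without the low-signal arrays, 53 differences of its 65 probes were negative, against 8981 of 19948 over all probes tested. In that fit 10 were lower at an unadjusted p under 0.05 (background 7.44%) and 0 passed by limma. The median was -0.23 there, whereas the median with all arrays was 0.18. Its median log2 ratio was -1.03 in 12 h replicate 2, against 0.73 and 0.36 in replicates 1 and 3 and -0.11 to 0.46 at 72 h.

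**Figure D5:**
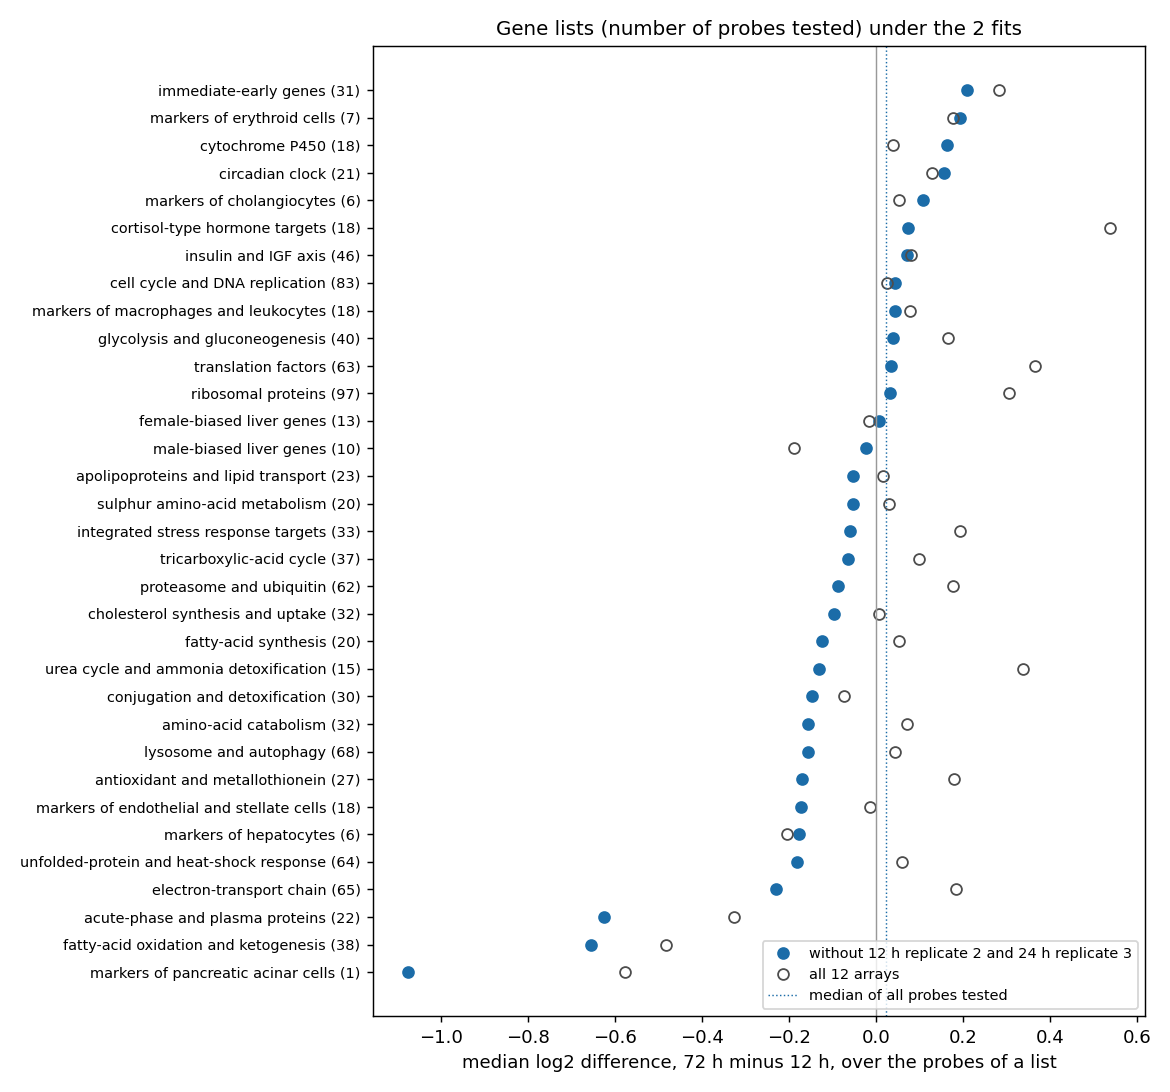
Median log2 difference, 72 h minus 12 h (horizontal axis), over the probes of each of 33 gene lists, without the low-signal arrays (filled) and with all 12 arrays (open), with the number of probes tested in brackets. Fatty-acid oxidation, plasma proteins and the single acinar probe lie left of -0.30 in both fits, while the electron-transport chain, the urea cycle and others change side.

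Markers of other cell types could move with these differences, and in bulk tissue fewer cells of a type cannot be told apart from less RNA per cell. No marker probe passed by limma in either fit, and the background of the following counts is 7.44% lower and 5.37% higher over all probes. Of 18 macrophage and leukocyte probes 1 was higher and 3 lower at an unadjusted p under 0.05 without the low-signal arrays (median 0.04). Of 18 endothelial and stellate probes 6 were lower (median -0.17), of 7 erythroid probes 2 were higher (median 0.19), and of 6 cholangiocyte probes 2 were higher and 1 lower (median 0.11). With all arrays, 1 endothelial and stellate probe was lower (median -0.01) and 1 macrophage and leukocyte probe was higher (median 0.08). In that fit 2 erythroid probes were higher (median 0.18) and 1 cholangiocyte probe was lower (median 0.05). The single pancreatic acinar probe differed by -1.07, with 12 h replicate 1 at 1.57 and the 72 h arrays between -0.27 and -0.05. The 6 hepatocyte probes, of 4 genes, had a median of -0.18, and 2 of them were lower at an unadjusted p under 0.05 in both fits. These were the secreted carriers transferrin (Trf, -1.03 ± 0.26, saturated on 2 arrays at 12 h) and transthyretin (Ttr, -0.98 ± 0.29, saturated on 1 array at 12 h), and another Trf probe differed by -0.10 ± 0.22. The hepatocyte list median ran from -0.05 to 0.08 in the 12 h arrays and from -0.16 to -0.08 at 72 h. The part of cell composition in the results was not tested.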

How the data were processed

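Feature Extraction 6.1.1 quantified the 2-colour Agilent arrays. The authors deposited raw median spot and background intensity per channel and a log10 ratio per array, used as an alternative. Of 21446 spots, 1075 controls and 91 retired probes were left out, which leaves 20280; 11943 received a current RefSeq symbol, mostly by gene number. Background was corrected with normexp (offset 50), 24 channels were quantile-normalized together, outlier spots were excluded, and log2 sample over reference was fitted with limma 3.58.1 (R 4.3.3) over 4 groups. Probes were tested where Cy3 was well above background on every 72 h or every 12 h array. Signals of a pooled reference and 3 arrays per group limit precision; dyes were not swapped. Separate arrays held separate pools as far as the labels say, so p-values measure only the spread between these samples.

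The comparison, the gene lists and the members were chosen with earlier results of these data known. Named genes were the 12 largest changes per direction that passed without overlap of the arrays, every probe that passed, and 2 to 4 members per list. Where fewer than 12 passed, the 12 were filled up by smallest p among probes that also had no overlap. Some genes are not reported here, though counts and medians include them. Further list members were named for their role after their values were seen. Only the fit without the low-signal arrays was tested on simulated data, which held neither a low-signal array nor a day effect. The deposited log10 ratio was the sign-turned scanner ratio for all 243360 values compared. Replicate numbers come from different mice and did not pair the arrays.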

Additional observations from a re-analysis of the deposited data

How the results depend on the processing

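With all arrays, 0 probes passed under loess, the scanner's log ratio, the Cy3 channel alone, no background correction, both other filters on dim probes, outlier spots kept, only the 6 arrays compared, day as a random block and the replicate block. The exceptions were 347 probes with array weights, 3642 with a fixed day block, 27 without both low-signal arrays and 117 at an unadjusted p under 0.01 with 1.4-fold. Leaving out single arrays gave 0 to 0.

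Without the low-signal arrays (27 probes), 0 passed with all 12 arrays, with 24 h replicate 3 kept, with the Cy3 channel alone and with day as a random block, 7 without background correction, 10 with only the 5 arrays compared, 11 with the scanner's log ratio, 203 with array weights and 530 at an unadjusted p under 0.01 with 1.4-fold. Single arrays left out gave 2 to 119. Of these 10 fits, Dbi, Plin2 and Acot1 stayed past the threshold in 9. Among the weaker calls, Gk stayed past it in 4, Scd1 in 3, Lamp2 and Usp10 in 2 and Ciart in 1. The replicate block gave 20, 16 of them among the 27, and with same-numbered arrays' deviations correlated at -0.54, -0.39 and 0.15 the numbers did not pair the arrays. The count stayed within 1.5 times under loess (20), both other filters (27), outlier spots kept (23) and a normalization without the 2 arrays (27). A fixed day block could not be fitted there, since day and group cannot be told apart.

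In the fits without the low-signal arrays no named gene reversed. With all 12 arrays and a fixed day block, the difference became 0.37 for Cyp7b1, 0.36 for Lifr, 0.10 for Aldh3a2, -0.00789 for Pkdcc, -0.14 for Hdac10, -0.25 for Slc25a10, 1.05 for Azin1, 0.19 for Fabp5, 0.23 for Acsl1, 0.71 for H3159A06-5, 1.02 for Slc25a30, 0.57 for Gk, 0.65 for H3087G03-3, 1.05 for Lamp2, 0.68 for Scd1, 0.56 for Usp10, 1.09 for K0616F07-3 and 0.77 for J0458D01-3. With a random day block it became 0.47 for Azin1, 0.26 for H3159A06-5, 0.40 for Slc25a30, 0.16 for Gk, 0.28 for H3087G03-3, 0.53 for Lamp2, 0.30 for Scd1, 0.25 for Usp10, 0.51 for K0616F07-3 and 0.35 for J0458D01-3. The cause was not tested.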

Other observations

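The 24 h arrays were not compared here, but they entered the normalization and the spread of each probe in the fits. They give the levels between the 2 fasts. In 24 h replicates 1 and 2, Acot1 read 1.71 and 2.04, Plin2 1.61 and 1.61 and Slc22a5 1.22 and 1.34, all above the 72 h arrays of the same gene. Dbi read -0.46 and -0.55, below 12 h replicates 1 and 3 and above the 72 h arrays. Ciart read -0.05 and 0.32, above all 12 h arrays. The low-signal array, 24 h replicate 3, read 1.38 for Acot1, 0.47 for Plin2, 0.31 for Slc22a5, -1.51 for Dbi and -0.13 for Ciart.

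Members of the fatty-acid list that are not lower at 72 h were few. The differences without the low-signal arrays were 0.20 for pyruvate dehydrogenase kinase 4 (Pdk4), which limits glucose oxidation, 0.16 and 0.12 for the probes of Acsl4, a synthetase that prefers arachidonic acid, and 0.0028 for the peroxisomal dienoyl-CoA reductase Decr2.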
